A study of Homo sapiens with 16 samples.

Results

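Non-homologous end joining is the pathway that seals DNA double-strand breaks without a template, and 10 of its core genes are described here: XRCC5, XRCC6, PRKDC, DCLRE1C, POLL, POLM, LIG4, XRCC4, NHEJ1 and PAXX. They were taken by name, whatever their values, from 60605 Ensembl identifiers, and all 10 were found. Each had enough reads to be tested in every comparison.

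The assay, PRO-seq, labels nascent RNA in nuclei and so counts RNA polymerases engaged on genes. The cells were LNCaP, an established prostate cancer line that responds to androgen. All 6 groups are this 1 line, none carries an engineered allele, and each holds 2 replicates. In batch 2, cells received for 90 min either the DMSO vehicle or 10 µM enzalutamide, an antiandrogen drug. Both were given with and without 6 Gy of ionizing radiation (IR), delivered after 30 min and followed by 60 min of incubation. Batch 1 compared cells labelled mock with cells labelled 6 Gy IR. The labels of batch 1 name no vehicle and no time after IR. Under each replicate number are 2 libraries, t1 and t2, and the labels do not say what these stand for. Their counts were summed, so that each number gave 1 sample. The study's title poses the question addressed, whether androgen signalling directly controls the transcription of genes of the DNA damage response.

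In end joining, the ring formed by XRCC5 (Ku80) and XRCC6 (Ku70) slides onto a broken end and recruits PRKDC, the catalytic subunit of the DNA-dependent protein kinase. DCLRE1C (Artemis) is the nuclease that opens hairpins and trims ends, and POLL and POLM are the polymerases that fill short gaps. LIG4 joins the ends in a complex with its scaffold XRCC4, while NHEJ1 (XLF) and PAXX, which resemble XRCC4 in fold, help hold the ends together. The pathway is active through most of the cell cycle and is a main route of repair after ionizing radiation. In prostate cancer it has drawn attention because androgen signalling has been linked to repair of radiation damage.

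The starts of some of these genes are shown first, with common promoter motifs. RefSeq windows on GRCh38.p14, from 250 bases before to 50 bases after a start, matched 8 of the 10 genes with 15 windows; XRCC5 and PRKDC are not among them. Motifs were searched on both strands. No window held a p53 half-site, which was in 6.63% of 35116 windows of all genes. The GC box, GGGCGG or CCGCCC, was in 10 of the 15 windows and in 45.0% of all. Its 10 windows belong to 7 of the 8 genes, and POLL had none. CCAAT or ATTGG was in 8 of the 15 windows and in 34.6% of all, and TATAAA or TTTATA in 1, from DCLRE1C, against 11.5%. These matches describe letters and not bound sites. The windows of 3 genes are printed 5′ to 3′ on the strand of the gene, with these motifs in capitals. XRCC6 (chr22:41621045-41621344, plus strand) stands for Ku, and NHEJ1 (chr2:219160766-219161065, minus strand) and PAXX (chr9:136992172-136992471, plus strand) are the genes to which the radiation comparisons return. In XRCC6 the capitals are 3 GC boxes and 1 ATTGG, in NHEJ1 2 GC boxes and in PAXX 6.
XRCC6: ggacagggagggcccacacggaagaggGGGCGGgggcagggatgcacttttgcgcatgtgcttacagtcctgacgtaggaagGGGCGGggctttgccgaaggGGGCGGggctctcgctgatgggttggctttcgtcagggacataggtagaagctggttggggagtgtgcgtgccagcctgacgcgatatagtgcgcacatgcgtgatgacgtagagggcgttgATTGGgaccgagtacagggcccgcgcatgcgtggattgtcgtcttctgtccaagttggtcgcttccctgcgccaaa
NHEJ1: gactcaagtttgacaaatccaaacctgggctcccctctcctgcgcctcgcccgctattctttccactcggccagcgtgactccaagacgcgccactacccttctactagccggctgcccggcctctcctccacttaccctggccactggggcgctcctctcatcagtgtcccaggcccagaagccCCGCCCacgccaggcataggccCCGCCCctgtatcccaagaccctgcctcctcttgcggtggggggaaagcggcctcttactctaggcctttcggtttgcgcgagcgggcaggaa
PAXX: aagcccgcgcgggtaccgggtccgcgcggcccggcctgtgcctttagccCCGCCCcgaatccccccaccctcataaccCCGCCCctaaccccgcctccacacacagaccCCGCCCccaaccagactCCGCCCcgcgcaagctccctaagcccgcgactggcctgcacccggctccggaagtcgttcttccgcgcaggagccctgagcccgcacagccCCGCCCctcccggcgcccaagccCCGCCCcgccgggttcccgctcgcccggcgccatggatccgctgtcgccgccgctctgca

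Batch 1 was sequenced less deeply, with 3438642 to 9363458 counts per library, against 10494563 to 19905824 in batch 2. Together the 10 genes took 0.0542% to 0.0813% of a batch 1 library and 0.106% to 0.116% of a batch 2 library. FOLH1, a gene of luminal prostate cells, was at 1086 ± 123 CPM in mock (SD, n = 2), while PTPRC, CD3E and KRT5, markers of lymphoid and basal cells, had means under 1 CPM in every group, and COL1A1, VIM and TP63, of stromal and basal cells, were at 3.24 to 10.8 CPM. KLK3, an androgen-responsive gene, was at 181 and 184 CPM in mock and at 13.2 and 16.7 CPM in vehicle. CDKN1A, a p53 target, rose by 3.02 (log2, SE 0.17) with IR in vehicle cells and by 3.65 (SE 0.15) in batch 1, and the androgen-responsive genes ZBTB16 and TMPRSS2 fell with enzalutamide by 0.83 (SE 0.059) and 0.58 (SE 0.062) averaged over radiation (edgeR adjusted p = 1.91e-05 and 0.00123). FKBP5 at -0.26 and KLK3 at -0.66, also androgen-responsive, did not pass (edgeR adjusted p = 0.220 and 0.690). Within batch 1, the t1 and t2 libraries stood apart in a way that touches several of the 10 genes. Longer genes were higher in t1 than in t2 of mock cells and lower in t1 than in t2 of irradiated cells, so comparisons that use batch 1 are also given for each kind of library alone. The p53 response was present in both kinds: CDKN1A was at 38.2 to 57.3 CPM in the 4 mock libraries and at 542 to 600.5 CPM in the 4 irradiated ones.

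All 10 genes had reads in every sample, with at least 94 counts each. Levels are given as CPM, counts scaled to library size by TMM factors over all samples, and in a bulk library a lower level in each cell cannot be told apart from fewer cells transcribing a gene. The levels of the 10 genes summed to 1029 and 1046 CPM in vehicle, 1227 and 1078 with IR, 1110 and 989 with enzalutamide, and 1085 and 1121 with both. In batch 1 they summed to 630.7 and 700.1 CPM in mock and to 694 and 731 after IR. The 8 batch 2 samples spread by a factor of 1.22 to 1.41 between the lowest and the highest sample of a gene, over all treatments.

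Of Ku, which finds the broken end, XRCC5 was at 288 and 289 CPM in vehicle, 354 and 292 with IR, 299 and 253 with enzalutamide, and 292 and 289 with both. Only 1 irradiated vehicle sample stood clearly above the rest. XRCC6, its partner, was at 107 and 110 CPM in vehicle, 130 and 121 with IR, 121 and 110 with enzalutamide, and 125 and 133 with both. In batch 1 XRCC5 was at 157 and 197 CPM in mock and 191 and 206 after IR, and XRCC6 at 76.1 and 75.8 in mock and 72.1 and 77.9 after IR. Both Ku genes were lower in mock than in vehicle, without overlap. Mock and vehicle values did not overlap for 77.1% of 26943 genes with a mean of at least 10 counts.

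PRKDC, the kinase that Ku recruits, was at 404 and 420 CPM in vehicle, 492 and 436 with IR, 445 and 410 with enzalutamide, and 426 and 454 with both. The enzalutamide values overlapped those of their controls both without and with IR. In batch 1 PRKDC was at 192 and 230 CPM in mock and 230 and 246 after IR, and its mock values lay below those of vehicle without overlap. The share of all genes without overlap between mock and vehicle was 77.1%.

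Among the enzymes that prepare ends, DCLRE1C, the nuclease, was at 56.6 and 57.5 CPM in vehicle, 62.1 and 57.2 with IR, 64.6 and 52.3 with enzalutamide, and 56.5 and 58.5 with both. POLL was at 28.9 and 26.3 CPM in vehicle, 32.7 and 26.9 with IR, 28.8 and 26.6 with enzalutamide, and 32.6 and 32.4 with both. POLM was at 33.4 and 40.1 CPM in vehicle, 44.2 and 42.9 with IR, 38.8 and 36.9 with enzalutamide, and 43.7 and 43.4 with both. Of these 3 genes, POLM alone had both irradiated groups above their unirradiated ones without overlap. Over all genes, 46.5% did not overlap in vehicle and 39.3% under enzalutamide, in either direction. The share of genes higher in both was not computed. Their mock values in batch 1 were 47.5 and 48.1 CPM for DCLRE1C, 25.4 and 21.2 for POLL, and 37.9 and 34.7 for POLM. After IR they were 42.0 and 46.7, 21.8 and 24.0, and 38.8 and 35.7 CPM in the same order.

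The ligation genes split by batch in opposite directions. LIG4, the ligase, was at 24.2 and 20.8 CPM in mock and 25.2 and 20.2 after IR in batch 1, but at 10.6 and 9.74 in vehicle, 11.2 and 9.42 with IR, 11.5 and 8.39 with enzalutamide, and 11.8 and 11.6 with both. XRCC4, its scaffold, was at 31.4 and 38.9 CPM in mock and 33.6 and 38.5 after IR, against 60.6 and 51.3 in vehicle, 56.4 and 47.2 with IR, 59.5 and 49.3 with enzalutamide, and 51.4 and 49.8 with both. The ligase was thus higher and its scaffold lower in mock than in vehicle, both without overlap. Between mock and vehicle, 77.1% of all genes did not overlap. NHEJ1 was at 21.8 and 21.2 CPM in mock, 27.7 and 24.9 after IR, 31.9 and 32.3 in vehicle, 35.0 and 36.6 with IR, 32.9 and 34.7 with enzalutamide, and 36.5 and 38.8 with both. PAXX was at 18.0 and 12.6 CPM in mock, 12.4 and 11.9 after IR, 8.02 and 9.19 in vehicle, 9.43 and 8.50 with IR, 8.13 and 8.48 with enzalutamide, and 9.40 and 10.5 with both. NHEJ1 was higher in each irradiated group than in its control. Irradiated and control values did not overlap, in either direction, for 39.9% of all genes in batch 1, 46.5% in vehicle and 39.3% under enzalutamide. The share of genes higher in all of these was not computed. PAXX and LIG4 rested on few reads, 95 to 195 and 94 to 332 counts per sample.

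**Figure D1:**
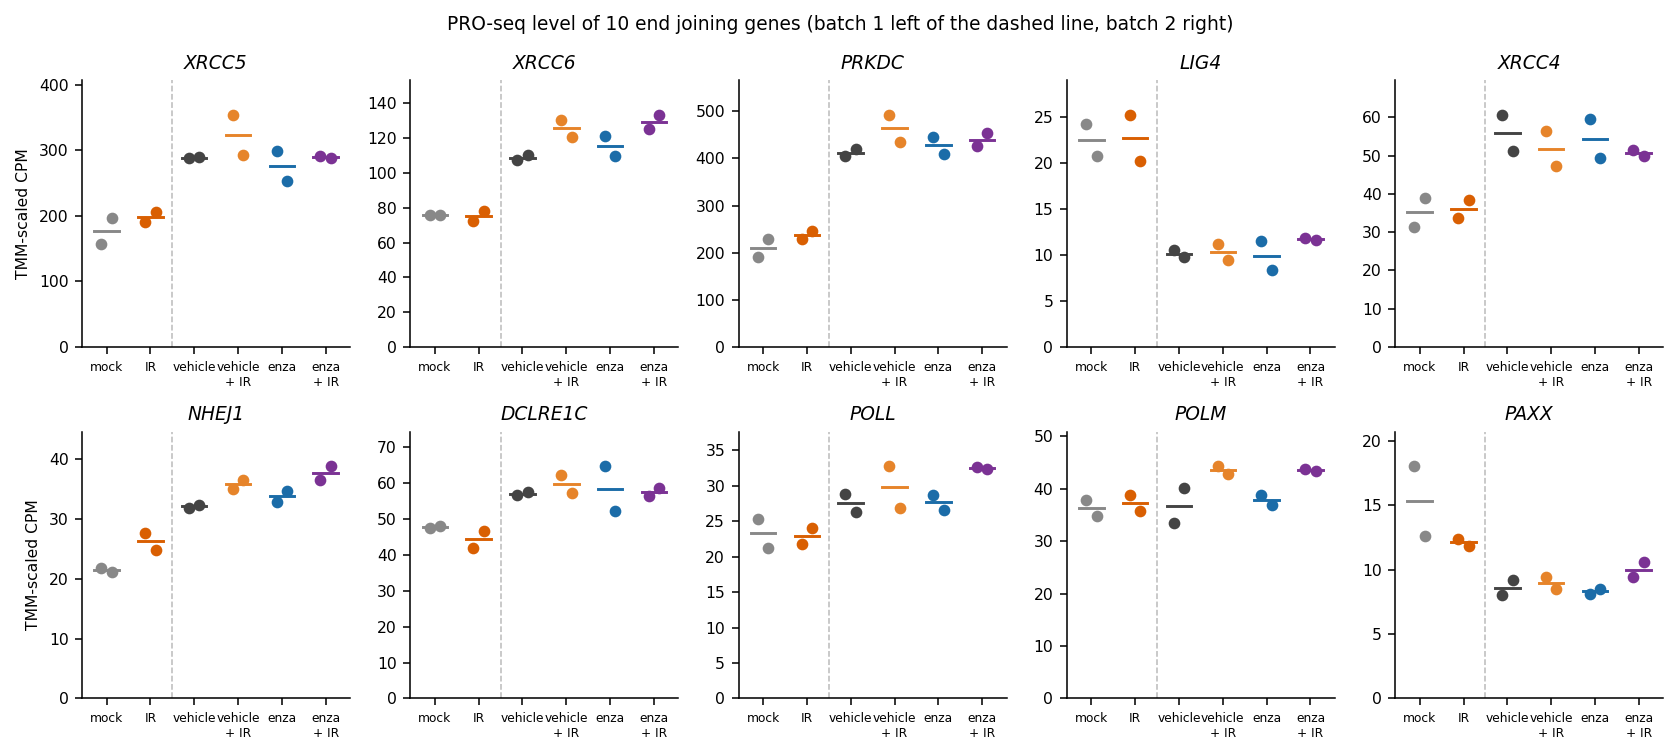
TMM-scaled CPM (y axis, from 0) of the 10 genes in the 6 groups (x axis), where each point is 1 replicate and each bar the mean of 2. Without IR, vehicle and enzalutamide points do not overlap for 1 of the 10 genes, against 26.0% of 26943 genes with a mean of at least 10 counts. Batch 1 mock and batch 2 vehicle points do not overlap for 9 of the 10 genes, against 77.1% of those genes. Of the 9, LIG4 and PAXX are higher in mock and 7 genes lower.

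By RefSeq on GRCh38.p14, XRCC5 lies on chromosome 2 (216109348 to 216206293), as does NHEJ1 (219069357 to 219160815), and XRCC6 on chromosome 22 (41621295 to 41664041). PRKDC is on chromosome 8 (47773111 to 47960136), and DCLRE1C (14897359 to 14954432) and POLL (101578882 to 101588270) are both on chromosome 10. POLM is on chromosome 7 (44072062 to 44082530), LIG4 on 13 (108207442 to 108218349), XRCC4 on 5 (83077547 to 83374473) and PAXX on 9 (136992422 to 136993976). Their spans run from 1.6 kb for PAXX to 296.9 kb for XRCC4.

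Levels of different genes can be compared only per length, here as CPM per kb of the RefSeq gene span in vehicle cells. The counted feature is not given, so a level per kb can mix polymerases paused near the start with those in the gene body. The order below is therefore one of counts per span and not of transcription rate. PAXX, which spans 1.6 kb and had 136 and 183 counts, was the highest at 5.53 ± 0.53 CPM per kb (SD, n = 2). POLM followed at 3.51 ± 0.45. XRCC5 at 2.98 ± 0.014 and POLL at 2.94 ± 0.20 came next and overlapped. XRCC6 (2.54 ± 0.052), PRKDC (2.20 ± 0.060), DCLRE1C (1.00 ± 0.010) and LIG4 (0.93 ± 0.052) followed without overlap between neighbours. NHEJ1 (0.35 ± 0.0035) and XRCC4 (0.19 ± 0.022) were the lowest.

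In cells without radiation, enzalutamide moved none of the 10 genes past the threshold. The largest difference upward was in XRCC6, at 0.08 on the log2 scale (SE 0.083), and the largest downward in XRCC5, at -0.07 (SE 0.10). For LIG4 the difference was -0.02 (SE 0.17) and for PRKDC 0.05 (SE 0.091). In the same comparison ZBTB16 fell by 0.93 (SE 0.087, edgeR adjusted p = 0.00298). With edgeR's quasi-likelihood test 0 of 10 genes passed an adjusted p of 0.05, and DESeq2 also called 0. An unadjusted edgeR p under 0.05 was found for 0 of the 10 and 2.56% of all genes. Of 28651 genes tested, 3 (0.0105%) passed, all lower with the drug; with the replicate number as a block 55 genes passed, none of them among the 10. The median log2 difference was 0.02 over the 10 genes and 0.01 over all. All 10 intervals of 95% lay within a 1.5-fold change in either direction, as did those of 54.1% of all genes. The widest was that of LIG4, from 0.77- to 1.27-fold, and the narrowest that of XRCC6, from 0.934- to 1.20-fold. The vehicle and enzalutamide values did not overlap for 1 gene of the 10, NHEJ1 (31.9 and 32.3 against 32.9 and 34.7 CPM). Of 26943 genes with a mean of at least 10 counts, 26.0% did not overlap either.

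In irradiated cells the result was the same for each of the 10 genes: none passed the threshold. XRCC5 was 0.16 lower (SE 0.10, fold interval 0.771 to 1.04), with 292 and 289 CPM under enzalutamide against 354 and 292 in irradiated vehicle cells. LIG4 was 0.18 higher (SE 0.17, fold interval 0.881 to 1.46), PAXX 0.15 higher (SE 0.16) and POLL 0.12 higher (SE 0.11). XRCC4, PRKDC, DCLRE1C and POLM had log2 differences between -0.08 and -0.004. ZBTB16 fell by 0.74 (SE 0.087, edgeR adjusted p = 0.0133) there, a call that held in 9 of 13 alternatives, while TMPRSS2 at -0.48 did not pass (edgeR adjusted p = 0.469). By edgeR, 0 of the 10 were called, 0 reached an unadjusted p of 0.05 (3.0% of all genes did), and DESeq2 called 0. Over all genes edgeR called 3 of 28651 (0.0105%), and 55 with the replicate block, again with none of the 10. The median log2 difference was 0.02 over the 10 genes and -0.002 over all. All 10 intervals stayed within 1.5-fold, as did 52.3% of all. XRCC5 and LIG4 had groups without overlap, as did 30.4% of 26943 genes.

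Averaging the drug effect over radiation sets 4 samples against 4 and gives the narrowest intervals. XRCC5 was lower by 0.11 (SE 0.065, edgeR adjusted p = 0.851), a fold of 0.925 with an interval of 0.839 to 1.02. PRKDC, whose product works with Ku, was at 0.989-fold (interval 0.906 to 1.08) and XRCC6 at 1.04-fold (0.963 to 1.13). For the end-processing genes, the intervals were 0.902- to 1.09-fold for DCLRE1C, 0.933- to 1.17-fold for POLL and 0.913- to 1.12-fold for POLM. For the ligation genes they were 0.894- to 1.25-fold for LIG4, 0.870- to 1.09-fold for XRCC4, 0.951- to 1.16-fold for NHEJ1 and 0.874- to 1.21-fold for PAXX. Each interval held a fold of 1, so that neither a rise nor a fall was detected, and the bounds give the size of change that these samples leave possible. By comparison ZBTB16 was lower by 0.83 with an interval from -0.96 to -0.70 on the log2 scale. With edgeR 0 of 10 genes passed, 0 had an unadjusted p under 0.05 (6.21% of all genes did), and DESeq2 called 0. Over all genes edgeR called 18 of 28651 (0.0628%), all lower with the drug, and 272 with the replicate block, none among the 10. The median log2 difference was 0.03 for the 10 genes and 0.001 for all. All 10 intervals lay within 1.5-fold, against 68.7% of all genes. The edgeR adjusted p of the 10 genes ran from 0.851 to 0.992.

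**Figure D2:**
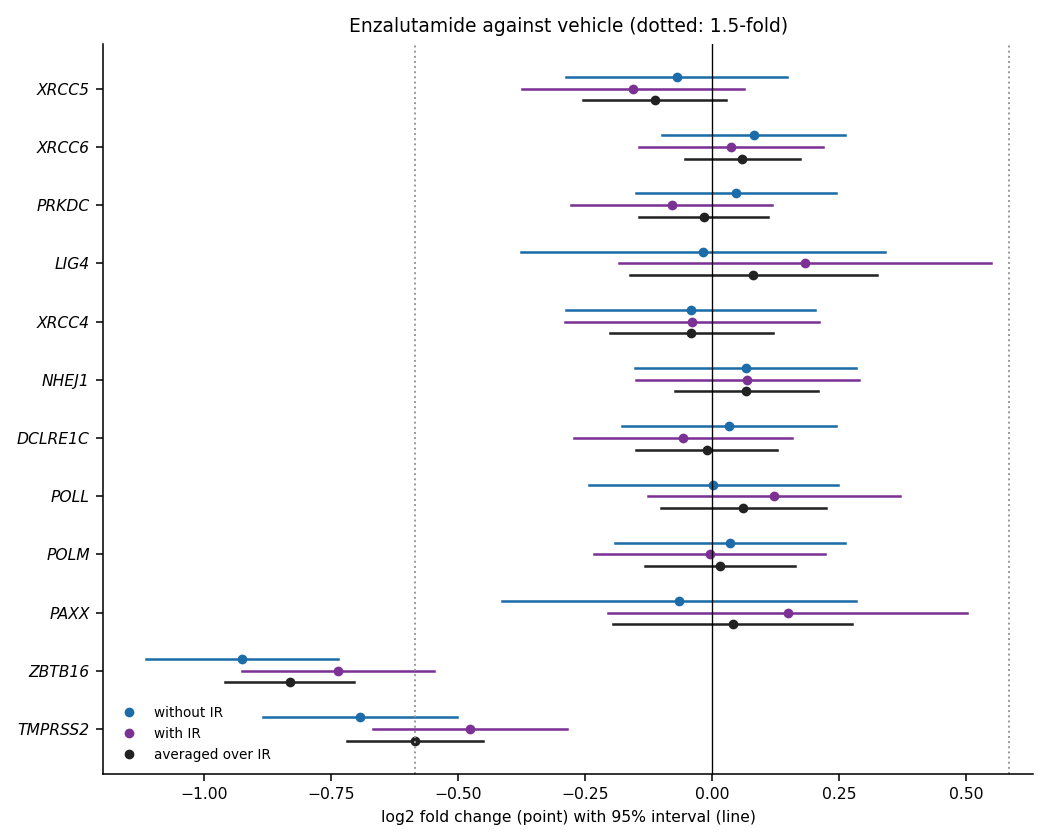
Log2 fold change of enzalutamide against vehicle (x axis; points) with 95% intervals (lines) for the 10 genes and for the androgen-responsive ZBTB16 and TMPRSS2 (y axis), without IR, with IR and averaged. All 30 intervals of the 10 genes lie between the dotted 1.5-fold lines and cross 0, whereas those of ZBTB16 and TMPRSS2 lie wholly below 0.

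Whether the drug acted differently with radiation was tested by the interaction term. It was largest for PAXX at 0.21 (log2, SE 0.23, fold interval 0.822 to 1.64) and LIG4 at 0.20 (SE 0.24, 0.805 to 1.64). PRKDC had the lowest at -0.13 (SE 0.13). XRCC4 and NHEJ1 were at 0.003 (SE 0.16 and 0.14). No interaction passed: edgeR called 0 of 10 genes and 0 of 28651 (0.0%), where 0 of the 10 and 343 of all had an unadjusted p below 0.05, and DESeq2 called 0 of both. With the replicate block 1 gene of all passed. The intervals are wider here, and 8 of the 10 lay within 1.5-fold, all but LIG4 and PAXX, against 40.8% of all genes.

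Radiation, which induced CDKN1A, MDM2 and FDXR, p53 targets, by 2.10 to 3.02 on the log2 scale in vehicle cells, moved none of the 10 genes past the threshold there. POLM was 0.21 higher (SE 0.10, edgeR adjusted p = 0.484) and XRCC6 0.17 higher (SE 0.083, adjusted p = 0.475). PRKDC, XRCC5 and NHEJ1 were each 0.12 to 0.13 higher. XRCC4 was the gene furthest down, at -0.15 (SE 0.11). None of the 10 was called by edgeR, 0 had an unadjusted p under 0.05, and DESeq2 called 0, while edgeR called 314 of 28651 genes (1.1%) and 1315 with the replicate block, none among the 10. The median was 0.10 over the 10 genes and -0.01 over all. Coding genes with a mean of at least 10 counts also lay mostly above 0 by log2 ratio of mean CPM. Their medians were 0.11 under 5 kb of span, 0.12 at 5 to 20 kb and 0.09 at 20 to 50 kb. They were 0.06 at 50 to 100 kb and -0.01 over 100 kb. All 10 intervals lay within 1.5-fold, as did 48.5% of all genes. The values of XRCC5, XRCC6, PRKDC, NHEJ1 and POLM did not overlap between vehicle and irradiated vehicle cells; these are 5 of 10 genes, and 46.5% of all genes did not overlap.

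Under enzalutamide, too, no gene passed after radiation. PAXX was 0.23 higher (SE 0.16, unadjusted p = 0.176), POLL 0.20 (SE 0.11), LIG4 0.19 (SE 0.17) and POLM 0.17 (SE 0.11). XRCC4 was at -0.14 (SE 0.12) and PRKDC at 0.01 (SE 0.091). The edgeR test called 0 of the 10, 0 reached an unadjusted p of 0.05 (9.49% of all genes did) and DESeq2 called 0. Over all genes edgeR called 263 of 28651 (0.918%), or 951 with the replicate block, none among the 10. The median was 0.12 over the 10 genes and -0.01 over all. Intervals within 1.5-fold numbered 9 of 10, against 47.8% of all; the exception was PAXX, whose upper bound just passed it. Groups did not overlap for XRCC6, LIG4, NHEJ1, POLL, POLM and PAXX, 6 of 10, against 39.3% of all genes. The radiation comparison in vehicle cells and the one under enzalutamide use different samples, and the interaction above is the test of their difference.

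In batch 1, NHEJ1 was the gene furthest up and PAXX the gene furthest down after radiation, and neither passed. NHEJ1 was 0.29 higher (SE 0.13, fold interval 1.01 to 1.48, unadjusted p = 0.0399, edgeR adjusted p = 0.393). PAXX was at -0.33 (SE 0.18, fold interval 0.606 to 1.05, edgeR adjusted p = 0.558). XRCC5 and PRKDC were 0.17 and 0.18 higher (SE 0.14 for each), and the other 6 genes lay between -0.10 and 0.04. The edgeR test called 0 of 10, and DESeq2 called 0. NHEJ1 alone had an unadjusted edgeR p under 0.05, as did 11.5% of all genes. Over all genes edgeR called 731 of 25889 (2.82%), and 2332 with the replicate block, none among the 10. The median was 0.02 over the 10 genes and -0.002 over all. Intervals within 1.5-fold numbered 9 of 10, all but PAXX, against 53.7% of all genes. NHEJ1, DCLRE1C and PAXX had groups without overlap, as did 39.9% of all. Without mock replicate 2, PAXX passed at -0.57 (edgeR adjusted p = 0.0491), the only call among the 10 when single replicates were left out. That fit assumes that the lone mock sample varies like the irradiated ones. The mock replicates also mixed t1 and t2 libraries unequally. Replicate 1 held 3438642 counts from t1 and 4584347 from t2, and replicate 2 held 5633290 and 3583636. In mock cells PAXX was higher in t2 than in t1, so its summed values depend on this mix.

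The batch 1 values hide opposite differences in its 2 kinds of library. Among t1 libraries alone, edgeR called 3 of the 10 genes and 3995 of 23134 genes tested (17.3%): XRCC5 at -0.54 (adjusted p = 0.0410) and XRCC4 at -0.61 (adjusted p = 0.0190), both lower after IR, and PAXX at 0.77, higher (adjusted p = 0.0273). Among t2 libraries alone it called 6 of the 10 and 9800 of 21930 genes (44.7%): XRCC5 at 0.98, PRKDC at 0.87, XRCC4 at 0.75, NHEJ1 at 0.43 and XRCC6 at 0.34, all higher, and PAXX at -1.32, lower. XRCC5, XRCC4 and PAXX thus had opposite calls in t1 and t2, and NHEJ1 was at 0.19 (adjusted p = 0.525) in t1. PRKDC shows the values behind this: mock cells were at 230 and 283 CPM in t1 and at 162 and 151 in t2, and irradiated cells at 193 and 190 in t1 and at 280 and 287 in t2. In 6 of the 10 genes the irradiated libraries lay on opposite sides of mock in t1 and t2, both without overlap, as in 34.3% of all genes. For PRKDC, mock t1 lay near irradiated t2, and mock t2 near irradiated t1. PAXX ran the other way, at 10.5 and 8.12 CPM in mock t1, 22.9 and 18.8 in mock t2, 14.5 and 16.3 in irradiated t1 and 8.36 and 8.22 in irradiated t2. LIG4 was called in neither kind, at 0.21 in t1 and -0.19 in t2 (edgeR adjusted p = 0.439 and 0.407). Its mock and irradiated values overlapped in t2 but not in t1, with 20.6 to 25.2 CPM in the mock libraries and 17.5 to 25.5 in the irradiated ones. The share of mitochondrial counts also moved in opposite directions between t1 and t2. In mock it was 4.25% and 5.06% in t1 and 3.24% and 3.94% in t2. In irradiated cells it was 2.87% and 2.86% in t1 and 5.38% and 4.47% in t2. Its part in these differences was not tested.

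Gene length moved with the same axis. The difference of mock t1 from mock t2 was 0.77 for XRCC5 (96.9 kb), 0.71 for PRKDC (187.0 kb), 0.61 for XRCC4 (296.9 kb), 0.36 for DCLRE1C (57.1 kb) and 0.34 for XRCC6 (42.7 kb) on the log2 scale. NHEJ1 (91.5 kb) was at 0.08, and the genes of about 10 kb were at -0.04 for POLL, -0.10 for LIG4 and -0.32 for POLM. PAXX (1.6 kb) was at -1.16. Over the 10 genes the difference correlated with log2 span at r = 0.92 (Spearman 0.88) in mock and r = -0.91 (Spearman -0.84) in irradiated cells, as a description of genes measured in the same libraries. Over 15687 coding genes the correlations were weaker, at r = 0.28 in mock and -0.41 in irradiated cells. The medians of all coding genes ran from -0.37 under 5 kb to 0.25 over 100 kb in mock and from 0.47 to -0.25 in irradiated cells. In the summed samples, the medians of IR against mock lay between -0.06 and 0.01 in the 5 span classes. Over the 10 genes, however, the summed difference still correlated with log2 span at r = 0.71 (Spearman 0.64). Over all coding genes this correlation was 0.03 (Spearman 0.05).

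**Figure D3:**
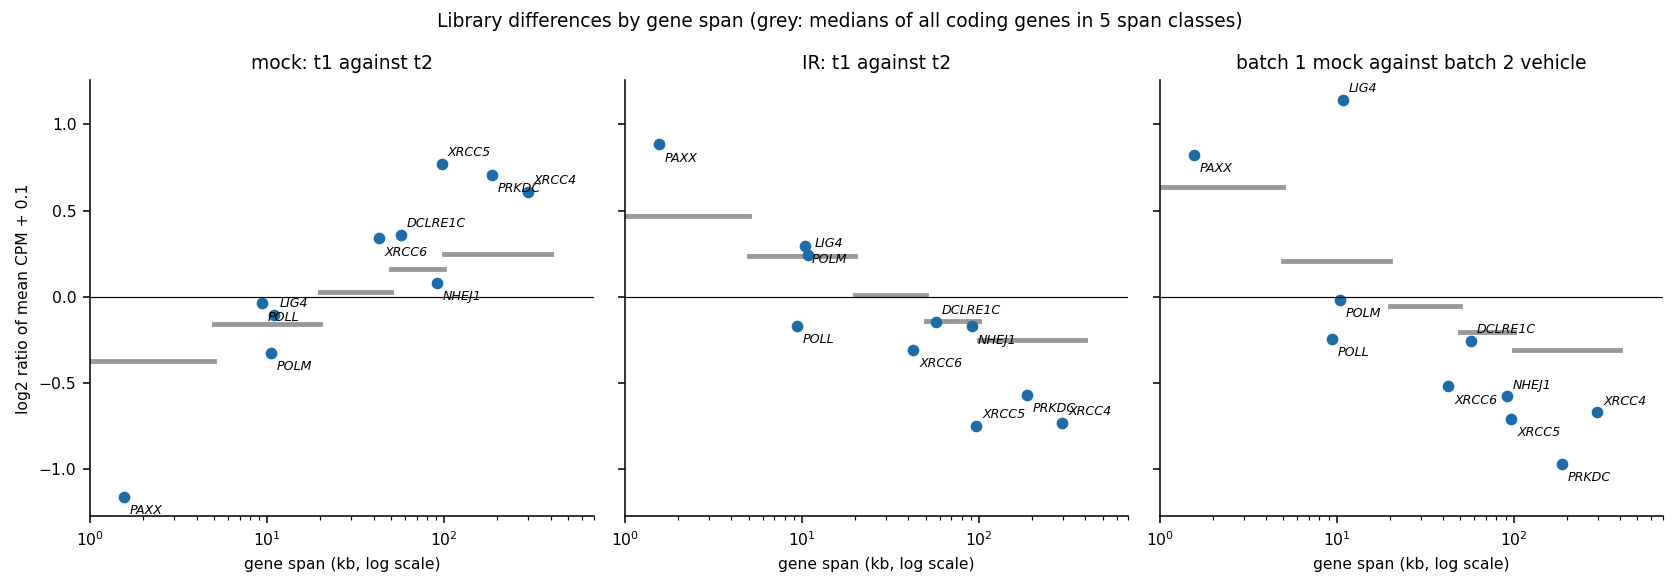
Log2 ratio of mean CPM + 0.1 (y axis) against gene span in kb (x axis, log scale) for the 10 genes (points), with medians of all coding genes in 5 span classes (grey lines): mock t1 against t2, irradiated t1 against t2, and mock against vehicle. Long genes lie above 0 and PAXX below in the first panel, the order is inverted in the second, and LIG4 (1.14) and PAXX (0.82) lie above 0 in the third.

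Taking both batches as 1 fit, with batch as a covariate and no enzalutamide samples, radiation again moved none of the 10 genes past the threshold. The time after IR is not given for batch 1, so this fit may join unlike times. NHEJ1 was 0.19 higher (SE 0.081, fold interval 1.01 to 1.28, unadjusted p = 0.0329, edgeR adjusted p = 0.256). PRKDC was 0.14 higher (SE 0.080) and XRCC5 0.14 higher (SE 0.084), while PAXX was at -0.17 (SE 0.13) and XRCC4 at -0.07 (SE 0.090). LIG4 was at -0.01 (fold interval 0.850 to 1.16). NHEJ1 was higher in every irradiated sample than in every control of its batch. Irradiated and control values did not overlap, in either direction, for 39.9% of all genes in batch 1 and 46.5% in vehicle cells. The share of genes higher in both was not computed, so how common this is among all genes is not known. The edgeR test called 0 of 10, and DESeq2 called 0. NHEJ1 alone had an unadjusted edgeR p under 0.05, as did 16.1% of all genes. Over all genes edgeR called 1182 of 29195 (4.05%), and 1954 with the replicate block, none among the 10. All 10 intervals lay within 1.5-fold, against 61.0% of all genes. With t1 libraries alone in batch 1, NHEJ1 was at 0.13 and XRCC5 at -0.23; with t2 alone they were at 0.25 and 0.54, and 0 of the 10 genes were called either way, against 2.93% and 2.37% of all genes.

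**Figure D4:**
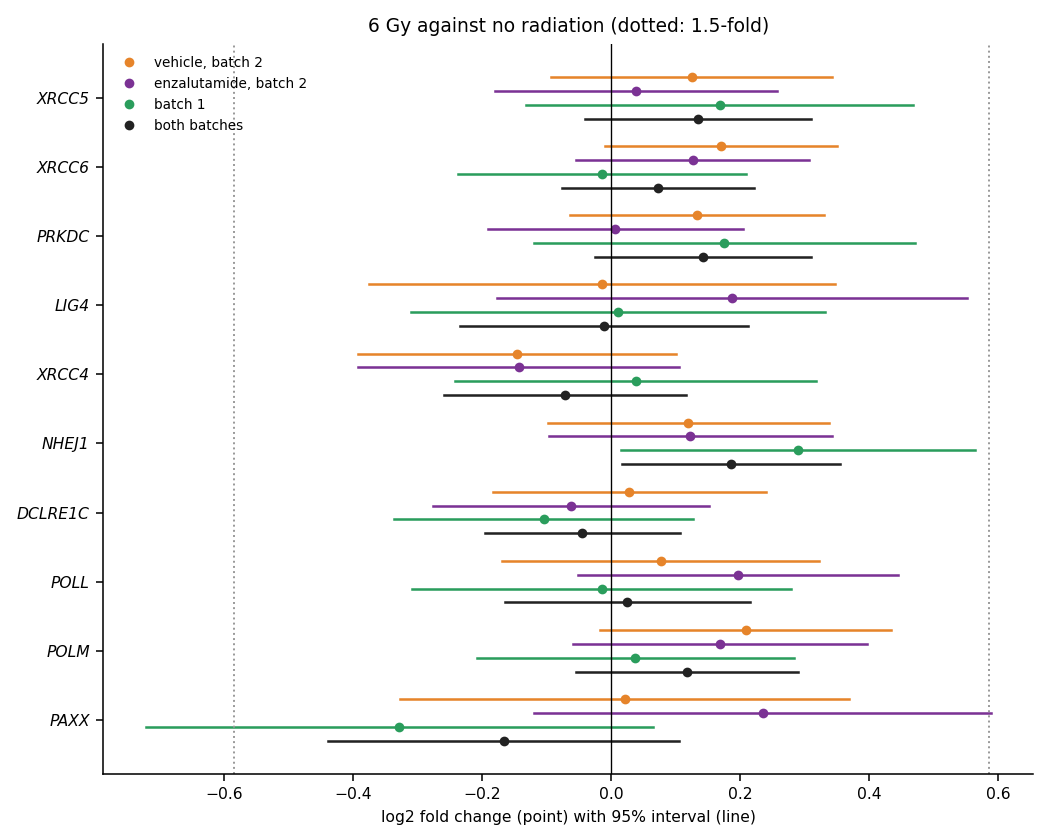
Log2 fold change of 6 Gy against no radiation (x axis; points) with 95% intervals (lines) for the 10 genes (y axis), in vehicle, under enzalutamide, in batch 1 and over both batches. All intervals cross 0 except those of NHEJ1 in batch 1 and over both batches, and those of PAXX in batch 1 and under enzalutamide pass a dotted 1.5-fold line.

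The difference of the radiation effect between batches, batch 1 minus batch 2, was furthest from 0 for PAXX at -0.37 (SE 0.25) and XRCC6 at -0.21 (SE 0.14). NHEJ1 was at 0.15 (SE 0.16) and LIG4 at 0.0005 (SE 0.22). Of the treatment references, MDM2 was called, with the larger rise in batch 1 (edgeR adjusted p = 0.0268), in 8 of 15 alternatives as well. The edgeR test called 0 of 10, with 0 at an unadjusted p under 0.05 (5.66% of all genes) and 0 by DESeq2. Over all genes edgeR called 31 of 29195 (0.106%), or 96 with the replicate block. Intervals within 1.5-fold numbered 9 of 10, all but PAXX, against 36.4% of all genes, and 5 with DESeq2. With t2 libraries alone 5 of the 10 and 5646 of 27773 genes (20.3%) were called, with XRCC5 at 0.86, PRKDC at 0.74, XRCC4 at 0.90, POLM at -0.49 and PAXX at -1.34. With t1 alone 0 of the 10 and 452 of 27263 genes (1.66%) were called.

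Most of the 10 genes differed in level between the untreated groups of the 2 batches. Mock was at 2.22 times the vehicle level for LIG4 and 1.78 times for PAXX, and at 0.511 times for PRKDC, 0.613 for XRCC5, 0.628 for XRCC4, 0.670 for NHEJ1 and 0.698 for XRCC6. DCLRE1C (0.838), POLL (0.844) and POLM (0.989) were nearer to 1. The median ratio was 0.768 over the 10 genes and 0.994 over 26943 genes, and 8 of the 10 were lower in mock, against 50.5% of all. Mock and vehicle values did not overlap for 9 of the 10 genes, all but POLM, and for 77.1% of all genes. These levels were set across 2 tables and were not tested, and batch cannot be told apart from the vehicle. Length moved along here too: median log2 ratios of coding genes ran from 0.64 under 5 kb to -0.31 over 100 kb. The correlation with log2 span was r = -0.82 (Spearman -0.87) over the 10 genes and -0.34 over all coding genes. LIG4, at 1.14 on this scale, was above the median of 0.21 for its class of 5 to 20 kb, to which POLL (-0.24) and POLM (-0.02) also belong.

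Replicate number also ran through batch 2. LIG4, XRCC4 and POLL were higher in replicate 3 than in replicate 4 in 4 of 4 groups, and NHEJ1 was lower in 4 of 4. The others were mixed: XRCC5 and POLM were higher in 3 of 4, XRCC6, PRKDC and DCLRE1C in 2 and PAXX in 1. With the replicate number as a block, none of the 90 estimates of the 10 genes changed its call, and the lowest edgeR adjusted p for the drug was 0.378.

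Several of the 10 genes share their start region or span with another gene, and the use of strand in counting is not given in the sources used here. By RefSeq, LIG4 starts 43 bases from ABHD13 on the other strand, POLL 51 bases from DPCD, XRCC4 153 bases from TMEM167A and XRCC6 252 bases from DESI1. ABHD13 was at 14.6 ± 1.97 CPM in mock and 10.1 ± 0.24 in vehicle, a smaller batch difference than that of LIG4. SUV39H2 covers 12.2% of the DCLRE1C span on the other strand, and MEIG1 205 bases. Other overlapping entries cover at most 1.7% of a member's span. They are RN7SL764P and LOC124906120 in NHEJ1, MIR6838 in POLM, LOC105375818 in PRKDC, COQ10BP2 and RPL13P9 in XRCC4, and LOC100421349 and POLHP1 in XRCC5. The 4 genes with a start nearby, SUV39H2 and MEIG1 had enough reads to be tested, and edgeR called none of these 6 in any comparison, with a lowest adjusted p of 0.353. Their lowest unadjusted p belonged to ABHD13. ABHD13 after IR under enzalutamide was at -0.44 (SE 0.16, edgeR adjusted p = 0.377), with 8.26 to 8.53 CPM against 10.4 to 11.7, while LIG4 there was at 0.19. Reads of DCLRE1C and SUV39H2 are uncertain to the extent that strand was not used.

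Genes that work around end joining gave the same counts under enzalutamide. Averaged over radiation, edgeR called 0 of 14 accessory and end protection genes, 0 of 6 of alternative end joining, 0 of 9 of end resection, 0 of 7 of break signalling and 0 of 3 V(D)J partners. The smallest p of the accessory genes were those of RIF1, which protects ends from resection, at -0.11 (SE 0.069), and APTX at 0.07. In alternative end joining they were those of XRCC1, a single-strand break scaffold, at 0.13 (SE 0.070), and RHNO1 at 0.10. In resection they were those of BARD1, at -0.17 (SE 0.070), and its partner BRCA1, at 0.07, and in signalling those of KAT5, an acetyltransferase, at 0.13 (SE 0.067), and ATM, the kinase that responds to breaks, at -0.08. BARD1 was the 1 gene of the 39 with an unadjusted edgeR p under 0.05, beside 6.21% of all genes, and its edgeR adjusted p was 0.769. List medians lay between -0.02 and 0.04, beside 0.001 for all genes. RAG1, RAG2 and DNTT, which cut and extend antigen receptor genes in lymphocytes, had group means of 0.387 to 3.92 CPM, too few reads for narrow intervals.

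After radiation over both batches, 1 of these 39 genes passed, where 4.05% of all genes did. H2AX, the histone variant phosphorylated around breaks, was lower by 0.32 (SE 0.088, edgeR adjusted p = 0.0481), at 88.4 and 91.8 CPM in vehicle against 72.1 and 76.4 with IR, and at 157 and 188 in mock against 119 and 162 after IR in batch 1. It passed in 4 of 15 alternatives, with adjusted p from 0.000782 to 0.946, and was at -0.03 with t1 libraries alone and at -0.67 with t2 alone. RHNO1, a checkpoint adaptor also placed in alternative end joining, was at -0.27 (SE 0.079, edgeR adjusted p = 0.0666). RBBP8 (CtIP) and EXO1, which resect ends, were both at 0.17 (edgeR adjusted p = 0.218 and 0.291), and TDP1 and PAXIP1 at -0.16 and 0.16 (edgeR adjusted p = 0.261 and 0.266). POLQ, the polymerase of alternative end joining, was at 0.06 and RNF8, a ubiquitin ligase of break signalling, at 0.16. List medians were 0.02 for accessory genes, 0.002 for alternative end joining, 0.05 for resection and for signalling, -0.24 for the V(D)J partners and 0.05 for the 10 core genes, beside -0.02 for all genes.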

How the data were processed

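The authors deposited 2 tables, 1 per batch, of raw PRO-seq counts per Ensembl identifier, judged from whole numbers whose totals differ between libraries. Per the submitters' processing notes, cutadapt 1.8.1, Bowtie2 2.4.4, SAMtools 1.9 and the build hg38 were used. Their roles, the annotation, the counted feature, the use of strand and any removal of duplicates are not given in the sources used here, so a level can mix polymerases paused near the start with those in the gene body. Identifiers were matched to symbols for 60463 of 60605 (99.77%). All 16 libraries were used, and the t1 and t2 counts of a batch 1 replicate were summed.

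Genes were kept by filterByExpr, scaled by TMM and tested with edgeR 4.0.16 (glmQLFit, glmQLFTest) in R 4.3.3, with two-sided p-values adjusted by the Benjamini-Hochberg method over all genes tested in a comparison and a threshold of 0.05. In batch 2, 1 model held all 4 groups and 8 samples. The averaged drug effect came from a model without interaction. The standard error is the size of the log2 fold change over the root of F, and 95% intervals from the t distribution of the model. The steps were tested on simulated counts. Alternatives were RLE factors, total counts, no filter, DESeq2 1.42.0, a replicate block, each replicate left out, and t1 or t2 libraries alone.

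The labels share replicate numbers between the groups of a batch. The replicate deviations of same-numbered samples correlated across genes at 0.103 to 0.262 over the 6 pairs of groups in batch 2 and at 0.198 in batch 1. Pairing rests on these numbers and correlations, since no shared culture or day is named. The labels do not say that replicates are separate cultures, so p-values measure only the spread between these samples, which may be technical.

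The genes, lists and naming rule were chosen with earlier results of these data known. Named are the 10 genes, their neighbours, and, of each list described, the genes that passed and the 2 with the smallest p, along with treatment references (ZBTB16, TMPRSS2, CDKN1A, MDM2, FDXR) and cell markers. Spans, neighbours and promoter windows are from RefSeq on GRCh38.p14. Results for some genes and motifs are not reported here.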

Additional observations from a re-analysis of the deposited data

Results flagged for a closer look

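For 6 of the 10 genes, every irradiated library of one kind in batch 1 lay on one side of its mock libraries and every irradiated library of the other kind on the opposite side. The log2 differences of IR from mock in t1 and in t2 libraries were -0.555 and 0.964 for XRCC5, -0.319 and 0.328 for XRCC6, -0.42 and 0.856 for PRKDC, and -0.606 and 0.734 for XRCC4. They were 0.339 and -0.283 for POLM and 0.728 and -1.33 for PAXX. Such opposite sides without overlap were found for 34.3% of 26943 genes with a mean of at least 10 counts. The difference between the 2 kinds of library was not tested. In 20 sets of 4 libraries, 1 for each gene in mock and in irradiated cells, 0 held a library far from the others. Each set joined t1 and t2 libraries. Where these kinds differed, a single library could hardly stand apart, so the check says little for such genes.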

How the results depend on the processing

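Of 1190 estimates of the 10 genes under alternatives, 1103 stayed uncalled and within 1 SE of the reported value, 72 stayed uncalled but moved by more, 11 passed the threshold in the reported direction and 4 passed it in the opposite one. RLE factors, total counts, no filter, DESeq2 and the replicate block moved none by more. The 4 were XRCC5 at -0.54, XRCC4 at -0.61 and PAXX at 0.77 with t1 libraries alone and XRCC6 at 0.34 with t2 alone, all for IR in batch 1; outside the 10 genes, TMPRSS2 came to 0.53 for the difference between batches with t2 alone. The called genes of the 10 numbered 3 with t1 and 6 with t2 alone for IR in batch 1, 5 with t2 alone for the difference between batches, and 0 to 1 when a replicate was left out of batch 1. Intervals within 1.5-fold numbered 2 and 5 of 10 in batch 1 and 2 and 3 for the batch difference with t1 and t2 alone, 5 for the latter with DESeq2, and 4 to 8 there when a replicate was left out. The summed level in vehicle was 1066 CPM with total counts, against 1029 and 1046 CPM as reported.

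Counts over all genes moved more. With the replicate block they were 55, 55, 272 and 1 for enzalutamide without IR, with IR, averaged and the interaction, 1315 and 951 for IR in vehicle and under enzalutamide, 2332 in batch 1, 1954 over both batches and 96 for the batch difference. The block changed no call of the 10 genes. Without the filter they were 74, 64, 230 and 32, then 624, 556 and 1157, and 119 for the batch difference. DESeq2 gave 13, 7 and 58 for the first 3. With t1 and t2 alone they were 3995 and 9800 in batch 1 and 452 and 5646 for the batch difference, and 657 over both batches with t2 alone. Leaving out a replicate gave 2 to 10, 1 to 6, 7 to 36 and 0 to 4 for the drug comparisons, 161 to 511 and 139 to 434 for IR in batch 2, 587 to 1509 in batch 1 and 21 to 45 for the batch difference. The cause was not tested.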
